A study of Mus musculus with 2 samples.

Results

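The dopaminergic neurons described here are those of the mouse ventral tegmental area (VTA) in which UMIs of Calb1, Otx2 and Slc17a6 together outnumbered UMIs of Sox6. A UMI is a molecular tag that marks 1 captured RNA molecule. Barcodes with at least 500 UMIs counted as neurons where Snap25, Syt1, Meg3, Snhg11, Rbfox3 and Nefl together made up at least 1% of UMIs. A neuron counted as dopaminergic where Slc6a3, Slc18a2, Ddc and Th together held at least 3 UMIs and at least 0.1% of its UMIs, with at least 1 UMI of Slc6a3 or Th. Of 1097 dopaminergic neurons among 14054 neurons and 27850 barcodes, 206 met the rule and are called members. They were 117 of 400 dopaminergic neurons in the CCI library and 89 of 697 in the WT library. All others, 283 in the CCI library and 608 in the WT library, are the other dopaminergic neurons.

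CCI is short for chronic constriction injury of a nerve by loose ligatures, which is used in rodents to model neuropathic pain. Per the labels the left sciatic nerve was injured and the right nerve was exposed without a ligature. The CCI library came from VTA tissue of adult mice with chronic neuropathic pain and the WT library from VTA tissue of wild-type adult mice, whose strain, surgery, sex and number of pooled animals are not given in the sources used here, nor is the hemisphere sampled. Both tissues were minced, digested with a brain dissociation kit and profiled with 10x Genomics 3' chemistry, in 1 library per group, so no difference between the groups has a replicate check. The series text speaks of nuclei and the barcodes are called nuclei here. The CCI library held 68376220 UMIs with a median of 3652 per barcode, and the WT library 18581333 UMIs with a median of 975. Members had a median of 9161 UMIs and 3570 genes in the CCI library, and of 2446 UMIs and 1423 genes in the WT library. The other dopaminergic neurons had medians close to these within each library, at 9521 UMIs in CCI and 2459.5 in WT. The libraries shared 54 barcode sequences, of which 2 were carried by a member.

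Midbrain dopaminergic neurons make dopamine from tyrosine with tyrosine hydroxylase (Th) and the decarboxylase Ddc, load it into vesicles with Slc18a2 and take it back up with Slc6a3. Broad developmental lineages are told apart by Sox6, a transcription factor of ventral substantia nigra neurons, and by Calb1, Otx2 or Slc17a6, which mark neurons of the VTA and the dorsal tier. Calb1 encodes the calcium buffer calbindin, Otx2 a homeodomain transcription factor, and Slc17a6 the vesicular glutamate transporter VGLUT2, whose presence lets some dopaminergic axons release glutamate as well.

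The genes that chose the members differed between members and the other dopaminergic neurons by construction, so their levels are given as a description. Calb1 (ENSMUSG00000028222, mm10 chr4:15881264-15908064) had 221 CPM, UMIs of the gene scaled to a fixed total per set of nuclei, in members against 28.3 CPM in the other dopaminergic neurons of the CCI library, and 334 against 11.96 CPM in the WT library. Slc17a6 (ENSMUSG00000030500, mm10 chr7:51622006-51671119) had 59.8 against 13.8 CPM in CCI and 97.3 against 8.82 CPM in WT. Otx2 (ENSMUSG00000021848, mm10 chr14:48657677-48673819), which overlaps its antisense partner Otx2os1, had 12.6 against 1.01 CPM in CCI and 46.5 against 1.26 CPM in WT. Sox6 (ENSMUSG00000051910, mm10 chr7:115470872-116038796) ran the other way, with 21.9 against 516 CPM in CCI and 21.2 against 543 CPM in WT. A Sox6 UMI was present in 22 members of the CCI library and 5 of the WT library. Of the dopaminergic genes of the gate, Slc6a3, the dopamine transporter, had 565 CPM in members against 668 CPM in CCI, and 791 against 768 CPM in WT. Th had 173 against 147 CPM and 254 against 183 CPM, so neither differed by 1.5-fold.

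Genes that the rule did not use bore out the dopaminergic part of the label. Nr4a2, the orphan nuclear receptor that specifies midbrain dopaminergic neurons, had 130 CPM in members, 131 CPM in the other dopaminergic neurons and 15.9 CPM in neurons outside the gate of the CCI library. In the WT library it had 157, 159 and 23.5 CPM in the same 3 sets. En1, a midbrain homeodomain factor, had 107 CPM in CCI members and 84.6 CPM in WT members, against 2.65 and 10.7 CPM in neurons outside the gate of those libraries. Chrna6, a nicotinic receptor subunit of dopaminergic neurons, had 90.1 and 80.4 CPM in members, against 2.04 and 4.82 CPM outside the gate. Pitx3, a dopaminergic homeodomain factor, was thinly counted, with 13 UMIs in CCI members and 1 in WT members. Slc6a3 itself was detected in 107 of 117 CCI members (91.5%) and 79 of 89 WT members (88.8%), against 278 (98.2%) and 555 (91.3%) of the other dopaminergic neurons.

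**Figure D1:**
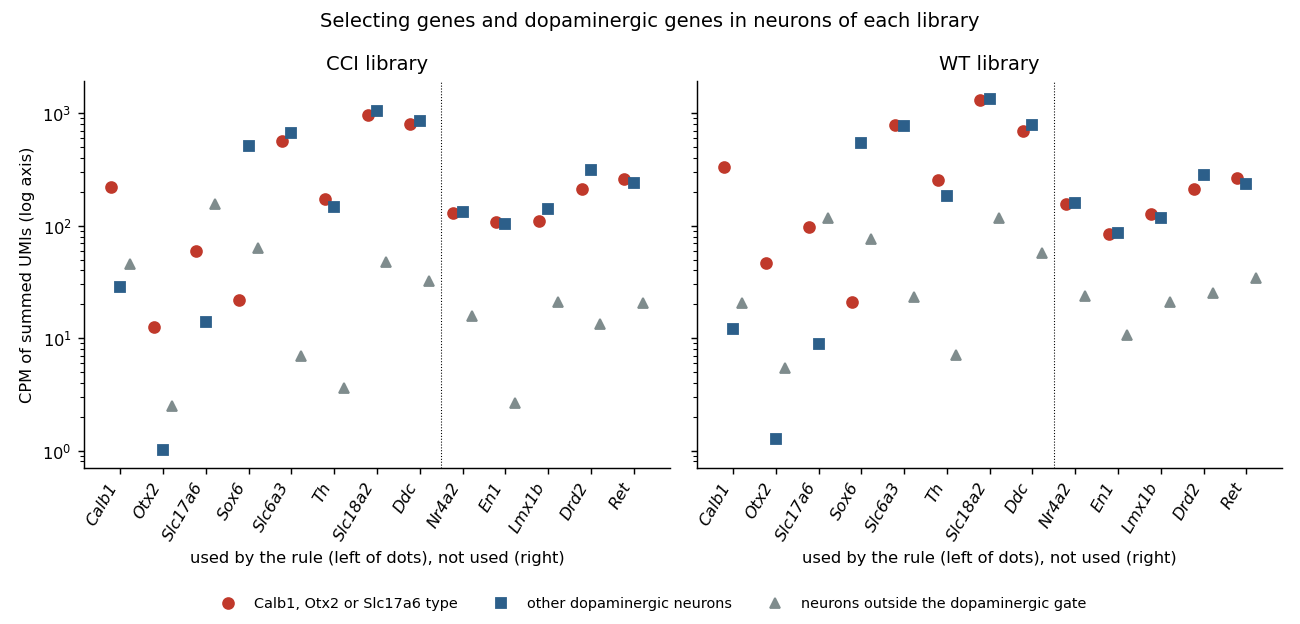
Level of genes the rule used (left of each dotted line) and of dopaminergic genes it did not use (right), in CPM of UMIs summed over nuclei, on a log axis, for members, other dopaminergic neurons and neurons outside the dopaminergic gate. Nr4a2, En1 and Ret of members lay beside the other dopaminergic neurons and above the neurons outside the gate in both libraries.

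Most members were selected through Calb1. It had the most UMIs of the 3 genes in 83 CCI members (70.9%) and 58 WT members (65.2%), Slc17a6 in 19 (16.2%) and 14 (15.7%), and Otx2 in 2 (1.71%) and 10 (11.2%), with 13 and 7 nuclei tied. More than 1 of the 3 genes was seen in 35 CCI members (29.9%) and 8 WT members (8.99%), mostly as Calb1 with Slc17a6, in 24 and 8 nuclei. The rule often rested on a single molecule: the sum exceeded Sox6 by 1 UMI in 43 CCI members (36.8%) and 73 WT members (82.0%). Just outside it lay nuclei with a tie, 68 in CCI and 267 in WT, of which 56 and 250 had no UMI of any of the 4 genes. Such nuclei count among the other dopaminergic neurons.

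Members made up 29.25% of dopaminergic neurons in the CCI library (exact Clopper-Pearson 95% interval 24.8 to 34.0%) and 12.8% in the WT library (10.4 to 15.5%). The interval covers counting error only, and the libraries differed in depth. With the 4 genes read again after each nucleus was thinned to 1000 UMIs, members were 40 of 397 dopaminergic neurons (10.1%) in CCI and 53 of 667 (7.95%) in WT, and the intervals, 7.30 to 13.5% and 6.01 to 10.3%, overlapped. With the whole rule applied after thinning, 15 of 137 (10.9%) and 28 of 328 (8.54%) remained. Ties were 17% of dopaminergic neurons in CCI and 38.3% in WT before thinning, and 63.2% and 59.97% after it. Without ties the thinned shares were 27.4% of 146 nuclei in CCI and 19.9% of 267 in WT. Dopaminergic neurons themselves were 5.45% of neurons in CCI and 10.4% in WT, and how much tissue of each midbrain region entered either library is not given.

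Within each library, UMIs were summed over members and over the other dopaminergic neurons and 8983 genes with at least 20 UMIs over both were compared as log2 ratios of CPM, members over others. In both libraries 243 genes (2.71% of those compared) were over 1.5-fold higher in members and 225 (2.5%) over 1.5-fold lower. Scaled by the trimmed mean of M values, which moved the median of all genes to -0.04 in CCI and -0.10 in WT, the split was 192 higher and 311 lower. In a single library the counts were larger, 653 higher (7.27%) and 623 lower (6.94%) in CCI, and 1122 higher (12.5%) and 1489 lower (16.6%) in WT. The 243 genes higher in both were 37.2% of those higher in CCI and 21.7% of those higher in WT, and the 225 genes lower in both were 36.1% and 15.1% of the lower ones. Genes taken in 1 library can be read in the other, whose nuclei did not choose them. Of the 30 highest genes taken in CCI, 25 were over 1.5-fold higher in WT, where 8.15% of genes of at least 50 UMIs were, and of the 30 highest taken in WT, 28 were over 1.5-fold higher in CCI, against 5.08%. For the 30 lowest, 22 taken in CCI were over 1.5-fold lower in WT, against 11.1%, and 20 taken in WT were over 1.5-fold lower in CCI, against 4.51%.

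**Figure D2:**
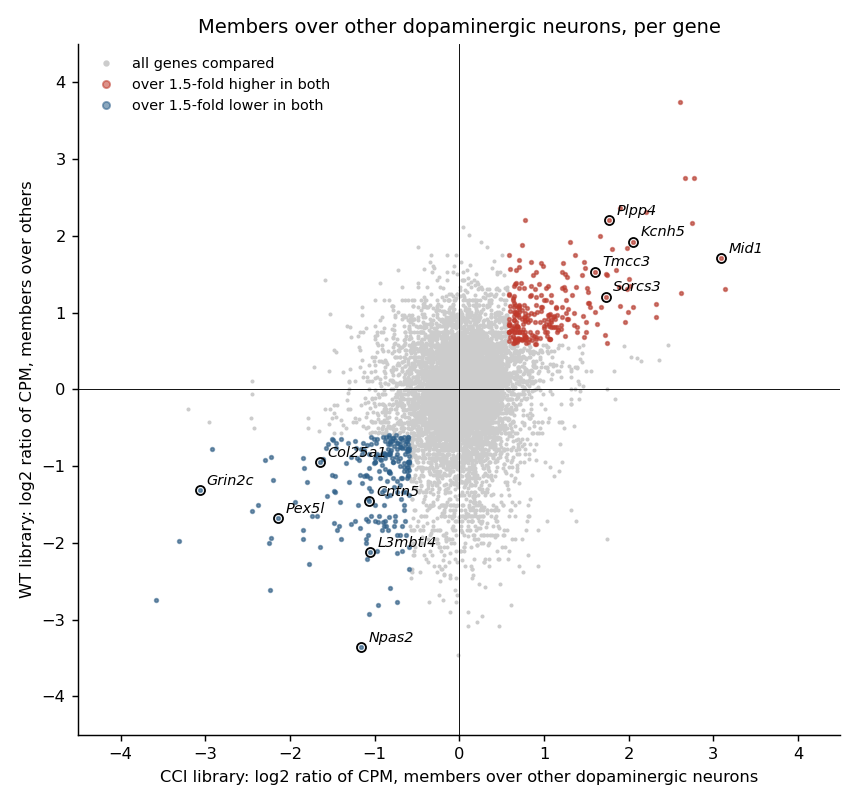
Log2 ratio of CPM, members over other dopaminergic neurons, in the CCI library (horizontal axis) and the WT library (vertical axis), 1 point per gene compared, leaving out genes the rule used. The 243 genes over 1.5-fold higher in both libraries are red and the 225 lower in both are blue, with some of the named genes ringed.

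The 15 genes with the most secure higher levels in members, by the interval bound nearest to 0, began with Plpp4, Unc13c and Tmcc3. Plpp4 (ENSMUSG00000070366, mm10 chr7:129257031-129391412), a phospholipid phosphatase, had 104 CPM in members against 30.6 CPM in the other dopaminergic neurons of CCI, and 110 against 23.9 CPM in WT. Its log2 ratio was 1.77 (95% counting interval 1.37 to 2.18) in CCI and 2.20 (1.42 to 2.96) in WT. Unc13c (ENSMUSG00000062151, mm10 chr9:73479422-73968966), a Munc13 protein that primes synaptic vesicles, had 275 against 69.97 CPM in CCI and 190 against 52.9 CPM in WT. Both genes were about as far apart in one library as in the other, and the same held for Tmcc3, with 320 against 105 CPM and 313 against 108 CPM. Nuclei with at least 1 UMI followed the levels: Unc13c was detected in 63.2% of CCI members against 27.6% of the other dopaminergic neurons, and in 30.3% of WT members against 10.5%.

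Potassium channel subunits among the 15 were Kcnh5, Kcnh7 and Kcnab1. Kcnh5, an EAG-family channel, had 93.4 against 22.5 CPM in CCI and 93.1 against 24.6 CPM in WT. Kcnh7, an ERG-family channel, had 260 against 110 CPM and 190 against 77.4 CPM. Kcnab1, a beta subunit of Shaker-type channels, had 327 against 135 CPM and 334 against 121 CPM. All were higher in members by more than 1.5-fold in both libraries, with log2 ratios of 1.25 to 2.05. Shisa6, an auxiliary protein of AMPA-type glutamate receptors, had 327 against 82.8 CPM in CCI and 250 against 101 CPM in WT, and the sorting receptor Sorcs3 had 380.5 against 115 CPM and 224 against 97.0 CPM. Bcl11a, a zinc-finger transcription factor of a subset of dopaminergic neurons, had 172 against 60.55 CPM in CCI and 182 against 73.0 CPM in WT. Mid1, a microtubule-bound ubiquitin ligase on the X chromosome, differed most in CCI, with 155 against 18.2 CPM (log2 ratio 3.09, 2.65 to 3.56), and less in WT, with 71.9 against 22.04 CPM (1.71, 0.78 to 2.58), where 17.6% of its 17 UMIs in members came from 1 nucleus. Fbxl7, Nell1, Dpyd, Ankfn1 and Pcsk6 completed the list, with log2 ratios of 1.02 to 2.02 in CCI and 1.17 to 1.58 in WT. The counting strand is not stated, so Kcnab1, Mid1, Bcl11a and Kcnh7 could hold UMIs of genes that overlap their exons on the opposite strand, as could Pex5l, Grin2c, Cntn5, Nwd2, Ldlrad4 and Arhgap6 among the 15 lowest genes. Pcsk6 and Arhgap6 overlap a gene on their own strand.

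The 15 lowest genes were led by Pex5l (mm10 chr3:32949408-33143247), which encodes TRIP8b, an auxiliary subunit of the HCN pacemaker channels. It had 460 CPM in members against 2027 CPM in the other dopaminergic neurons of CCI, and 601 against 1925 CPM in WT, log2 ratios of -2.14 (-2.27 to -2.01) and -1.68 (-1.93 to -1.44). It was lower in level rather than missing, since 82.1% of CCI members and 62.9% of WT members had a UMI, against 91.9% and 84.7% of the other dopaminergic neurons. Col25a1, a membrane collagen, had 461 against 1448 CPM in CCI and 816 against 1577 CPM in WT, and Hs6st3, a heparan sulfate sulfotransferase, had 269 against 743 CPM and 377 against 826 CPM. The contactins Cntn5, with 538 against 1130 CPM and 423 against 1162 CPM, and Cntn4, with 510 against 1146 CPM and 711 against 1216 CPM, are adhesion proteins of axons. Both were lower in members of both libraries, as was the sarcoglycan Sgcz, with 1509 against 2807 CPM and 2022 against 3602 CPM. Grin2c, an NMDA receptor subunit, was nearly absent from members: it had 3 UMIs in CCI members against 63 in the other dopaminergic neurons (log2 ratio -3.07, -5.38 to -1.46) and 0 against 50 UMIs in WT, at least 2.48-fold lower when 3 UMIs are taken as the floor. The other 8, St6gal2, Vwc2, Nwd2, Ldlrad4, Pld5, Arhgap6, L3mbtl4 and Npas2, had log2 ratios of -1.28 to -0.94 in CCI. In WT they ran from -3.36 for Npas2, which had 1 UMI in members, to -0.91 for Nwd2.

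**Figure D3:**
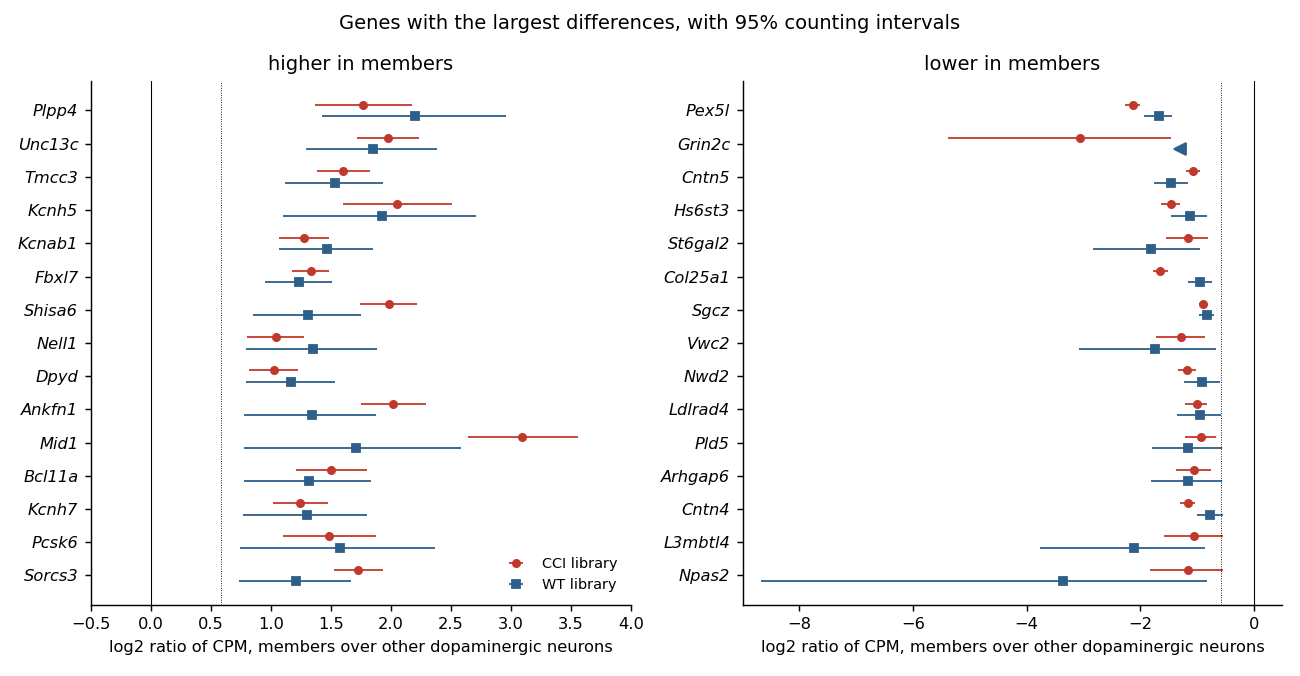
Log2 ratio of CPM, members over other dopaminergic neurons, for the 15 genes most securely higher and the 15 most securely lower, with exact 95% counting intervals, for the CCI library (red circles) and the WT library (blue squares). Dotted lines mark 1.5-fold, and the triangle is the bound for Grin2c, which had 0 UMIs in WT members.

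Levels of the 15 higher genes followed the distance from the selection threshold, as a description, since the genes were chosen on the same nuclei. The distance was counted in UMIs and its bins differed in depth. In CCI, median UMIs were 10127.5 at 2 or more above, 7893 at 1 above and 6429 in ties. They were 6203 at 1 below and 11396 at 2 or more below, and the part of depth was not tested. Summed over the 15 higher genes, nuclei whose sum exceeded Sox6 by 2 or more had 4143 CPM in CCI and 4144 CPM in WT, and nuclei 1 UMI above had 3333 and 3142 CPM. Ties had 2803 CPM in CCI and 2131 CPM in WT, nuclei 1 UMI below had 2116 and 1048 CPM, and nuclei 2 or more below had 955 and 626 CPM. Tied nuclei, which the rule leaves among the others, thus lay nearer to the members in this sum than nuclei with more Sox6 did. Single genes of the 15 were as high in ties of the CCI library as in its members: Plpp4 had 104 CPM in members, 128 CPM in ties and 7.999 CPM in nuclei 2 or more below, and Kcnab1 had 327, 427 and 68.4 CPM. In the WT library Plpp4 had 110 CPM in members, 49.9 CPM in ties and 3.08 CPM in nuclei 2 or more below, and Kcnab1 had 334, 211 and 43.2 CPM. The 15 lower genes summed to 4751, 4382, 5264, 7257 and 12929 CPM over the same steps in CCI, and to 5825, 5928, 8466, 12919 and 15857 CPM in WT.

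**Figure D4:**
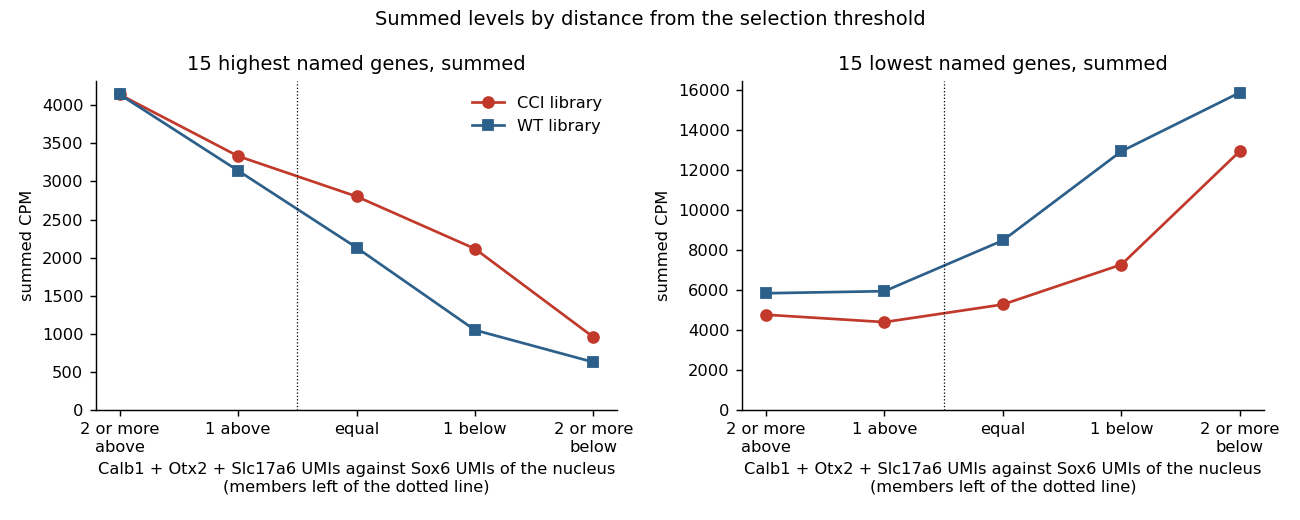
Summed CPM of the 15 higher (left) and 15 lower (right) genes in dopaminergic neurons binned by how far the UMI sum of Calb1, Otx2 and Slc17a6 lay above or below Sox6, in the CCI and WT libraries. Members are left of the dotted line; the 15 higher genes summed to 955 CPM in CCI and 626 CPM in WT in the last bin.

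Among 24 transcription factors of midbrain dopaminergic neurons, 21 could be compared, 3 were over 1.5-fold higher in members of both libraries and none lower. They were Bcl11a, Lmx1a and Foxa2, and counting intervals lay off 0 in both libraries for 2 of them. Lmx1a, a floor-plate factor that acts upstream of dopaminergic fate, had 141 against 79.4 CPM in CCI and 140 against 59.8 CPM in WT, and Foxa2, which acts with it, had 12.6 against 7.74 CPM and 16.9 against 10.1 CPM from 15 and 4 UMIs in members. Foxp2 had 734 against 416 CPM and 690 against 482 CPM, past 1.5-fold in CCI alone. The list median was -0.01 in CCI and 0.11 in WT, beside 0.02 and -0.01 over all genes compared. Of 17 genes for dopamine cofactors, storage, breakdown and autoreception, 13 were compared and 1, Gch1, was higher in both libraries. Gch1, which makes the cofactor of tyrosine hydroxylase, had 67.3 against 36.0 CPM in CCI and 67.7 against 42.8 CPM in WT. Its counting intervals did not lie off 0 in both libraries. The autoreceptor gene Drd2 had 212 CPM in members of either library, against 312 CPM in CCI and 282 CPM in WT, and the vesicle protein gene Sv2c had 394 against 698 CPM and 503 against 703 CPM. Neither passed 1.5-fold in both libraries.

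Of 29 markers of the Calb1 and Otx2 lineage beyond the rule's genes, only 12 had the counts to be compared; 4 were higher in members of both libraries and none lower, with list medians of 0.71 in CCI and 0.34 in WT. The 4 were Sorcs3, Otx2os1, Tmem163 and the neurokinin receptor gene Tacr3. Counting intervals lay off 0 in both libraries for 2 of the 4. Otx2os1, with 69.9 against 10.4 CPM in CCI and 50.8 against 11.3 CPM in WT, shares exon sequence with Otx2, a gene of the rule, and cannot be told apart from it without the strand. Lpl, lipoprotein lipase, and Grp, gastrin-releasing peptide, fell short of the count minimum. Lpl had 32 UMIs in members against 15 in CCI and 4 against 7 in WT, and Grp 37 against 27 and 8 against 6. Members were the smaller set in each library. A Lpl UMI was found in 16.2% of CCI members against 4.24% of the others, and in 4.49% against 0.822% in WT. For Grp the shares were 17.1% against 7.42% in CCI and 5.62% against 0.822% in WT. Of 23 markers of the Sox6 lineage, 17 were compared, 6 were lower in members of both libraries and none higher, with medians of -0.96 in CCI and -0.46 in WT. The 6 were Vcan, Kcns3, Serpine2, Grin2c, Vav3 and Sgcz. Aldh1a1, the retinaldehyde dehydrogenase of ventral-tier neurons, had 125 against 244 CPM in CCI and 157 against 196 CPM in WT, short of 1.5-fold in WT. Anxa1 had 0.842 against 16.8 CPM in CCI, from 1 UMI in members against 50. In WT it was not lower in members, with 8.46 against 6.30 CPM from 2 against 10 UMIs.

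Glutamate co-release was examined first through the vesicular transporters. Because Slc17a6 was among the genes of the rule, its share of nuclei is a description. After thinning to 1000 UMIs, a Slc17a6 UMI was found in 10 of 117 CCI members (8.55%, 4.17 to 15.2%) and 9 of 86 WT members (10.5%, 4.90 to 18.9%), against 4 of 280 (1.43%) and 6 of 581 (1.03%) of the other dopaminergic neurons. Oligodendrocyte nuclei, which should lack the transcript and show the level of free RNA, had it in 4.58% in CCI and 3.91% in WT, inside or just below the members' intervals. Neurons outside the gate had it in 14.3% and 10.5%. Nuclei under 1000 UMIs were left out of all thinned shares, so those of oligodendrocyte nuclei come from the deeper ones. Without thinning the shares were 46 of 117 CCI members (39.3%) and 21 of 89 WT members (23.6%), against 9.19% and 1.97% of the other dopaminergic neurons and 8.52% and 2.55% of oligodendrocyte nuclei, whose median depths were 2027 and 736 UMIs. The other dopaminergic neurons were thus below the oligodendrocyte level after thinning, and the rule itself keeps nuclei with Slc17a6 out of them unless they hold at least as much Sox6. With a stricter gate (at least 0.3% dopaminergic UMIs and a Slc6a3 UMI), 1 of 38 CCI members (2.63%) and 4 of 39 WT members (10.3%) had a thinned Slc17a6 UMI.

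The remaining glutamate genes did not separate members from the other dopaminergic neurons. Slc17a7 and Slc17a8, which encode VGLUT1 and VGLUT3, had 2 UMIs each in CCI members and 0 in WT members, and 0 of 89 nuclei, with 3 counts taken as the floor, allows up to 3.37% of nuclei with a UMI at that depth, which is no limit on nuclei that express the genes. Of 13 genes for glutamate synthesis, loading and uptake, 11 were compared and none passed 1.5-fold in both libraries, with medians of -0.08 in CCI and 0.05 in WT. The glutamine transporter gene Slc38a1 had 176 against 185 CPM in CCI and 203 against 167 CPM in WT. The lysosomal transporter gene Slc38a7 was the nearest to the threshold, with 21.9 against 10.1 CPM in CCI (1.12) and 16.9 against 11.96 CPM from 4 UMIs in WT (0.50). Summed over the list, members had 981 against 1033 CPM in CCI and 994 against 1092 CPM in WT.

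**Figure D5:**
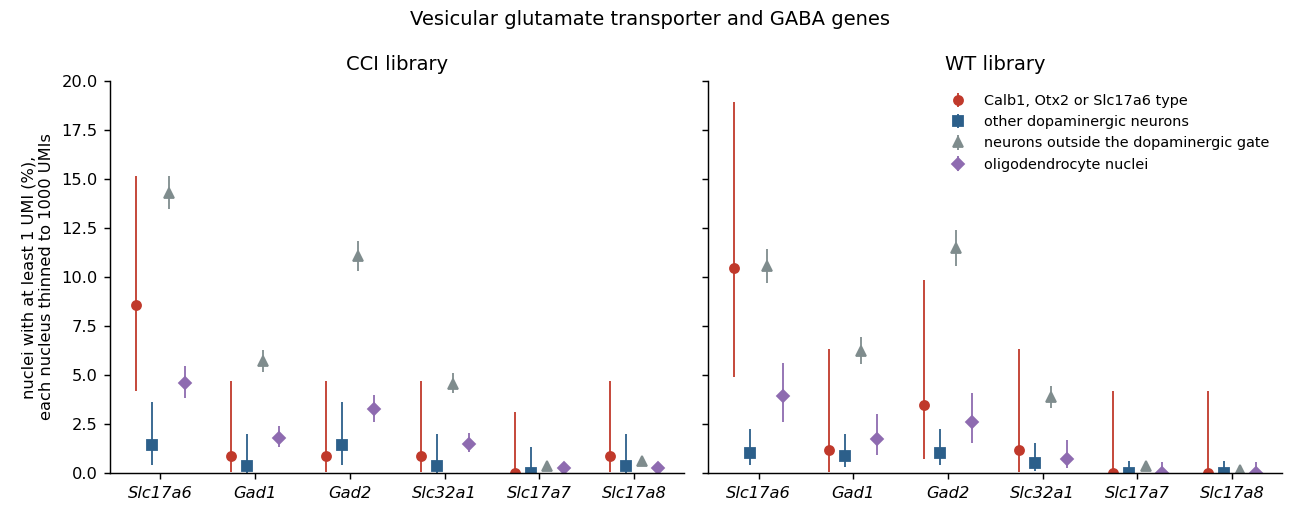
Percent of nuclei with at least 1 UMI after thinning each nucleus to 1000 UMIs, with exact 95% binomial intervals, for vesicular glutamate transporter and GABA genes in members, other dopaminergic neurons, neurons outside the dopaminergic gate and oligodendrocyte nuclei. Slc17a6 reached 8.55% of CCI members and 10.5% of WT members, beside 4.58% and 3.91% of oligodendrocyte nuclei.

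Of 8 genes for GABA synthesis, loading and uptake, 6 were compared and 1, Gad2, was over 1.5-fold higher in members of both libraries. Gad2 (mm10 chr2:22622205-22693874), a glutamate decarboxylase, had 32.0 against 13.8 CPM in CCI (log2 ratio 1.21, 0.54 to 1.89) and 38.1 against 13.2 CPM in WT (1.53, 0.22 to 2.71). Oligodendrocyte nuclei had 35.3 CPM in CCI and 36.6 CPM in WT, about the members' level, and neurons outside the gate had 120 and 123 CPM. After thinning, 0.855% of CCI members and 3.49% of WT members (0.725 to 9.86%) had a Gad2 UMI, against 1.43% and 1.03% of the other dopaminergic neurons and 3.24% and 2.60% of oligodendrocyte nuclei. The members' share lay below that of oligodendrocyte nuclei in CCI, and in WT its interval held theirs. It rested on 1 CCI nucleus and 3 WT nuclei, too few to tell members from background or from the other dopaminergic neurons. Oligodendrocyte nuclei also had fewer UMIs, medians of 2027 and 736, so free RNA need not take the same share in members. Unthinned, the members' share was 17.1% and 5.62%, against 9.19% and 3.13% of the other dopaminergic neurons and 7.18% and 2.92% of oligodendrocyte nuclei. Few nuclei carried the transcript: 21.1% of its 38 UMIs in CCI members and 44.4% of its 9 UMIs in WT members came from 1 nucleus. Gad1 had 7 and 1 UMIs in members and the vesicular GABA transporter gene Slc32a1 had 6 and 1.

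Members led by Slc17a6, 19 in CCI and 14 in WT, differed from the remaining members in genes outside the rule. Of 2326 genes compared, 68 (2.92%) were over 1.5-fold higher and 95 (4.08%) over 1.5-fold lower in both libraries. Among the most secure were Rbfox1, Unc5d and Asic2. Rbfox1, a splicing regulator, had 1603 CPM in Slc17a6-led members against 691 CPM in the remaining ones in CCI (log2 ratio 1.21) and 1245 against 374 CPM in WT (1.73), with 18.2% of all its UMIs in CCI members from 1 nucleus. Asic2, an acid-sensing ion channel, had 1014 against 354 CPM in CCI and 622 against 214 CPM in WT. Some markers of other neurons were higher in the same nuclei. Gad2 had 103 against 20.5 CPM in CCI and 197 against 14.6 CPM in WT, the latter from 6 against 3 UMIs. Ebf2, a marker of neighbouring glutamatergic neurons, had 91.1 against 15.6 CPM in CCI, from 15 against 16 UMIs. In WT it had 98.3 against 9.72 CPM, from 3 against 2 UMIs. Ebf3 had 425 against 215 CPM in CCI but 197 against 272 CPM in WT. Gad1 and Slc32a1 had few UMIs on either side. The summed list of non-dopaminergic glutamatergic markers was 631 CPM in Slc17a6-led and 342 CPM in Calb1-led members of CCI, and 524 and 280 CPM in WT; the GABAergic list was 176 and 98.9 CPM in CCI, and 393 and 69.96 CPM in WT. Dopaminergic genes made up a median of 0.170% of UMIs in Slc17a6-led and 0.286% in Calb1-led members of CCI, and 0.289% and 0.322% in WT. Their part in the result was not tested. Slc6a3 had 389 against 593 CPM in CCI and 721 against 802 CPM in WT. With the stricter gate Rbfox1 reversed in CCI to a log2 ratio of -1.28, from 3 against 92 UMIs, and Asic2 was at 0.29 in WT.

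Split instead by any Slc17a6 UMI, 46 CCI and 21 WT members against the rest, 2.41% of genes were over 1.5-fold higher in both libraries and 1.38% lower. For the Calb1-led members the percentages were 0.86 and 1.81. March1, a ubiquitin ligase, had 948 CPM in them against 564 CPM in the remaining members of CCI and 1215 against 720 CPM in WT, a log2 ratio of 0.75 in either library. Cadps2, Nrg1 and Sgcd had ratios of 0.29 to 0.62. For the Otx2-led members, 2 nuclei in CCI and 10 in WT, they were 5.07 and 9.85. These percentages cannot be set beside those of the larger subgroups, since a gene with 2 UMIs already had 112 CPM in the 2 CCI nuclei. The classical cadherin gene Cdh18 had 3584 against 1837 CPM in CCI and 2903 against 1732 CPM in WT in Otx2-led against remaining members. Summed, the 15 genes higher in members, which were chosen on these same nuclei, came to 3938 CPM in Calb1-led, 3360 CPM in Otx2-led and 4153 CPM in Slc17a6-led members of CCI, and to 3307, 3743 and 3701 CPM in WT. Single genes varied more, and Unc13c, Ankfn1 and Pcsk6 had 0 UMIs in the 2 Otx2-led members of CCI. Kcnh7 had 498 CPM in Slc17a6-led against 222 CPM in Calb1-led members of CCI, and 590 against 140 CPM in WT. Pcsk6 ran the other way, with 48.6 against 127 CPM and 32.8 against 108 CPM.

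Of 30 monoamine and acetylcholine receptor genes, 14 were compared. Of these 5 were over 1.5-fold higher in members of both libraries and 1 was lower, beside 2.71% and 2.5% of all genes compared. Counting intervals lay off 0 in both libraries for 3 of the 5 and for the lower gene. List medians were 0.60 in CCI and 0.26 in WT. The serotonin receptor gene Htr4, thinly counted in WT members, had 33.7 against 9.08 CPM in CCI and 25.4 against 10.1 CPM in WT. The alpha-1 adrenoceptor gene Adra1b had 58.1 against 33.3 CPM and 54.996 against 26.4 CPM. Among acetylcholine receptors, the homomeric nicotinic subunit gene Chrna7 had 113 against 41.0 CPM and 93.1 against 47.9 CPM, and the muscarinic receptor genes Chrm2 and Chrm3 had log2 ratios of 1.26 and 1.11 in CCI and of 1.00 and 0.81 in WT. Chrna5, an accessory nicotinic subunit, was lower, with 4 UMIs against 49 in CCI and 0 against 38 in WT. Htr2c had 206 against 78.7 CPM in CCI but 161 against 132 CPM in WT.

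Glutamate and GABA receptor genes divided by subunit. Of 18 ionotropic glutamate receptor genes, 17 were compared and 2 were lower in members of both libraries, Grin2c and the kainate receptor gene Grik1, which had 109 against 333 CPM in CCI and 144 against 270 CPM in WT. Grin2a had 1157 against 786 CPM and 1104 against 661 CPM, log2 ratios of 0.56 and 0.74. Of 9 metabotropic glutamate and GABA-B receptor genes, 8 were compared: Grm8, a presynaptic group III receptor, was higher with 247 against 93.9 CPM in CCI and 186 against 106 CPM in WT, and 1 gene was lower. Of 18 GABA-A and glycine receptor genes, 13 were compared and 2 were higher, Gabrg3 with 412 against 241 CPM and 444 against 275 CPM, and Glra2 with 74.9 against 32.3 CPM and 59.2 against 30.9 CPM. Of 32 receptor genes for peptides, opioids, endocannabinoids and hormones, 12 were compared and only Tacr3 was higher in both libraries. Its counting intervals did not lie off 0 in both. The mu opioid receptor gene Oprm1 had 39.6 against 21.5 CPM in CCI and 50.8 against 40.3 CPM in WT. Of 20 neuropeptide genes only Cck could be compared, with 67.3 against 36.7 CPM in CCI and 38.1 against 38.4 CPM in WT.

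Among 43 pacemaker, potassium and calcium channel genes, 38 were compared, 3 were higher in members of both libraries (Kcnn2, Kcnq5 and Kcnh7) and 2 lower (Kcna1 and Kcns3). Over all genes compared, 2.71% were higher and 2.5% lower, the shares beside which the counts of these lists stand. Kcnn2, a small-conductance calcium-activated potassium channel, had 308 against 141 CPM in CCI and 241 against 138 CPM in WT. Of 13 calcium-binding buffer and sensor genes besides Calb1, 8 were compared and Hpcal1 and Ncald were higher. Of 38 axon guidance genes, 30 were compared: Unc5d, Plxnc1 and Epha6 were higher, and Epha4 and Sema7a lower. Epha6, an ephrin receptor, had 2339 against 1291 CPM in CCI and 2141 against 1370 CPM in WT, while its relative Epha4 had 90.1 against 254 CPM and 161 against 253 CPM. Of 38 genes of synaptic adhesion, 35 were compared, with Cadm1 and Tenm3 higher and Cadm2, Cntn4, Cntn5 and Cdh20 lower. Of 22 growth factor and receptor genes, 18 were compared and 1 was higher: Fgf10, a secreted fibroblast growth factor, had 85.0 against 21.2 CPM in CCI and 71.9 against 26.4 CPM in WT, with exon overlap on the other strand and 23.5% of its 17 UMIs in WT members from 1 nucleus.

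Lists of other cells and of cell state held few genes past 1.5-fold. Among oligodendrocyte, astrocyte and microglia markers 12, 6 and 3 genes were compared and none passed in both libraries. Summed, the oligodendrocyte list was 496 CPM in members against 480 CPM in CCI and 1409 against 1497 CPM in WT, the microglia list 144 against 157 CPM and 165 against 170 CPM, with Csf1r at 0 UMIs in WT members, and the astrocyte list 622 against 555 CPM and 761 against 560 CPM. The non-dopaminergic glutamatergic list was higher in sum, 402 against 282 CPM in CCI and 372 against 300 CPM in WT, with none of its 5 compared genes past 1.5-fold in both libraries. Of 12 GABAergic markers, 2 were compared and only Gad2 passed. Oligodendrocyte precursor markers gave 1 lower gene of 2, Vcan, which is also on the Sox6 list, and no vascular marker had the counts. Mitochondrially encoded genes (13 compared) and heat shock and glucocorticoid-responsive genes (11 compared) gave none. Immediate early genes gave Jund higher and Nr4a1 lower of 2, and oxidative phosphorylation genes gave Cox4i1 lower of 19. Jund, Nr4a1 and Cox4i1 did not have counting intervals off 0 in both libraries. Scrublet called 11 CCI members (9.40%) and 12 WT members (13.5%) doublets, against 12.4% and 10.9% of the other dopaminergic neurons. The part of these other cells in the results was not tested.

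Between the libraries, 4138 genes had at least 20 UMIs over the members of both, and 430 (10.4%) were over 1.5-fold higher and 258 (6.23%) over 1.5-fold lower in CCI members than in WT members. With 1 library per group these ratios describe the libraries, not the injury, and depth cannot be told apart from the group. Ndst3, a heparan sulfate deacetylase and sulfotransferase, had 281 CPM in CCI members against 118 CPM in WT members, a log2 ratio of 1.25 (0.69 to 1.86), while in the other dopaminergic neurons the same ratio was -0.45. The potassium channel interactor gene Kcnip1 had 112 against 33.8 CPM (1.73, 0.71 to 2.97), against a ratio of 0.13 in the others. The remaining 8 of the 10 highest, Brd3, Zkscan16, Vwa5b1, Tshz2, Hjurp, Prlr, Nsun6 and Gpi1, had at most 6 UMIs in WT members and log2 ratios of 1.79 to 3.62. Thus only Ndst3 and Kcnip1 of the 10 rested on more than that in both libraries, Kcnip1 by little in WT members.

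Some genes lower in CCI members had like ratios in the other dopaminergic neurons. All 4 oligodendrocyte markers compared were over 1.5-fold lower, with a median of -1.19 in members and -1.54 in the others. Mitochondrially encoded genes did likewise in 9 of 10 compared, with medians of -0.94 in members and -0.92 in the others. Markers of the Sox6 lineage were lower in 5 of 12 compared: Kcns3 had 34.5 against 102 CPM (-1.56, and -0.22 in the others), Ndnf 37.9 against 102 CPM (-1.42, and -0.32) and Satb1 130 against 271 CPM (-1.06, and -0.11), followed by Lmo3 and Igf1. Others of the 10 lowest, Zeb2, AY036118, Selenok, Nectin3, Far1os and Rap1gap, had log2 ratios of -1.72 to -0.99 in members and of -1.09 to -0.43 in the others. The share of members that passed the rule by 1 UMI differed at the same time, 36.8% in CCI and 82.0% in WT, and its part was not tested. None of 6 glutamate and 3 GABA genes compared passed 1.5-fold between CCI and WT members, and of 9 dopamine genes 1, Maoa, was lower. The dopamine transporter and tyrosine hydroxylase genes, which the rule used, had 565 CPM for Slc6a3 and 173 CPM for Th in CCI members, and 791 CPM for Slc6a3 and 254 CPM for Th in WT members. Kcns3 turned to 0.84 among members that passed the rule by at least 2 UMIs, and Prlr to -0.33 with the stricter dopaminergic gate.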

How the data were processed

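Gene by barcode matrices of 2 libraries were analysed. Their values are UMI counts that the authors deposited unnormalized, made with Cell Ranger 7.1.0 per the file headers on mm10; Seurat is named in the submitters' processing notes without settings. The strand used in counting is not given in the sources used here. Gene coordinates are those of a matching mm10 annotation (32158 of 32285 features). Nuclei were chosen by the rule in the opening (WT barcodes under 500 UMIs, 690 of 14114, were left out) and UMIs were summed per library. The members, the 28 gene lists and the tests were chosen with earlier results of these data known. CPM scale a gene's summed UMIs to a fixed total per set of nuclei. Ratios carry exact conditional 95% intervals and shares exact Clopper-Pearson ones; neither covers more than counting error. No test between groups was possible with 1 library each. A call means past 1.5-fold in the same direction in both libraries, with at least 20 UMIs over both sides in each. CCI and WT members were compared at 20 UMIs in all and 10 expected in each library. Genes the rule used are left out of every list count.

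The named genes are the 15 highest and 15 lowest by the interval bound nearest to 0, in the library where it is nearer (at least 50 UMIs in each library), the 10 highest and 10 lowest between CCI and WT members (at least 50 UMIs over both), 4 per subgroup, up to 4 per list, and all glutamate and GABA genes; mitochondrial, ribosomal and haemoglobin genes, Xist, Tsix, Y-linked genes and unnamed models are left out of the ranked ones, and other X-linked genes are kept. Other genes named were chosen after their values were seen, and some genes the rule names are not reported here. Nuclei with at least 1% of UMIs from 5 oligodendrocyte genes and under 1% from the neuronal genes gave the level of free RNA. Scrublet (Scanpy 1.11.5, expected rate 10%) called 967 (7.04%) of CCI and 1233 (9.19%) of WT barcodes doublets, which were kept and left out in an alternative. The alternatives were other nuclei, gates, margins, comparators, scalings and filters, and thinning to 1000 UMIs. The ratio step was tested on simulated data. Python 3.11.15, NumPy 2.4.6, SciPy 1.17.1, pandas 2.3.3, matplotlib 3.10.9 and edgeR 4.0.16 (for trimmed mean of M values scaling) were used.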

Additional observations from a re-analysis of the deposited data

Results flagged for a closer look

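Brd3, Nsun6 and Zkscan16 were over 1.5-fold higher in members than in the other dopaminergic neurons of the CCI library and over 1.5-fold lower in the WT library. Brd3 had a log2 ratio of 0.61 in CCI and -2.81 in WT, where members held 1 UMI. Nsun6 had 0.62 in CCI and -1.95 in WT, from 2 UMIs in WT members. Zkscan16 had 0.83 in CCI and -0.91 in WT, from 5 UMIs in WT members. Whether the libraries differ in these genes was not tested. The counting intervals of both libraries lay off 0 for Brd3 and Nsun6, and not for Zkscan16. In all, 142 of 8983 genes passed 1.5-fold in opposite directions, 3 of them with both intervals off 0.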

How the results depend on the processing

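Depth limits these results: WT members held 236383 UMIs in all, against 1187914 in CCI members, and most WT members passed the rule by 1 UMI. No paired analysis was possible because each group has 1 library. No replicate was left out, since each group has only that library.

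Applied after thinning to 1000 UMIs, the rule gave members as 10.9% of dopaminergic neurons in CCI and 8.54% in WT; with a margin of at least 2 UMIs it gave 18.5% and 2.30%, as fewer nuclei pass. Against 243 genes higher in members, 133 were called after thinning, 130 at a minimum of 50 UMIs and 801 with at least 1 UMI on each side, of which 53, 130 and 243 were among the 243. Against 225 lower, 131 were called with the margin of 2 UMIs, 61 of them among the 225, and 115 at 50 UMIs. Genes compared numbered 3635 after thinning, 5517 at 50 UMIs and 12634 at 1 UMI. Over the lists, 29 genes were higher, and 17 with the stricter gate, 18 after thinning and 49 at 1 UMI; 18 were lower, and 11 after thinning. Leaving out Scrublet doublets gave 260 higher and 244 lower, of which 181 and 164 were shared.

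Between CCI and WT members, 430 genes were higher, and 207 with the stricter gate, 173 after thinning, 108 with the margin, 85 at 50 UMIs and 2375 at 1 UMI; 258 were lower, and 71 with the margin, 55 at 50 UMIs and 3011 at 1 UMI. Where fewer nuclei or genes do not account for these shifts, the cause was not tested.

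The following were chosen after seeing the data. Unthinned, Slc17a6 was seen in 39.3% of CCI and 23.6% of WT members and Gad2 in 17.1% of CCI members. Thinned, Slc17a6 was seen in 10 of 117 CCI members (8.55%) and Gad2 in 1 (0.855%). Thinned and with the stricter gate, Slc17a6 was seen in 1 of 38 CCI members (2.63%). In WT members its share was 10.5% thinned and 10.3% with the stricter gate as well. Gad2 was then seen in 0% of CCI and WT members and Slc32a1 in 0% of CCI members. Thinned and with the margin, Slc32a1 was seen in 0% of CCI and WT members. Reversed log2 ratios were -1.28 for Rbfox1 in Slc17a6-led and -0.25 for Inpp4b in Slc17a6-positive CCI members, both with the stricter gate.

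Among planned settings, Npas2 reversed to 0.037 in CCI after thinning, from 3 against 7 UMIs, Prlr between CCI and WT members to -0.33 with the stricter gate, and Kcns3 to 0.84 with the margin; the cause was not tested. Of 660 values of named genes in members over the others, 553 moved by less than counting error and 106 by more. The most moved with ties left out of the others, against nuclei with Sox6 above the sum only: 29 by more and 31 by less. That comparator gave 265 genes higher and 223 lower of 7432 compared. Of the 243 higher and 225 lower genes, 180 and 170 were still compared, and 169 and 160 were still called. Over the lists, 41 genes were then higher and 23 lower.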
